A study of Mus musculus with 12 samples.

Results

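The genes described here are 31 members of cholesterol and fatty acid synthesis, chosen by symbol and found in the deposited count table of 55487 genes. They comprise 5 SREBP regulators, 7 steps of the mevalonate stage, 11 later steps of sterol synthesis, 6 steps of fatty acid synthesis, and a sterol carrier and a glycerolipid enzyme that complete the list. All 31 passed the filter on low counts and were among the 14618 genes tested. Bulk RNA-seq had been made from mouse monocytes labelled Ly6C+, Ly6C marking the classical subset, in 4 groups of 3 libraries. The BM group was bone marrow monocytes labelled WT, with no age or other allele given. The KO group was fetal liver monocytes at E13.5 (embryonic day) labelled KO. The Mixed group was fetal liver monocytes at E15.5 whose genotype label was also WT, and the labels do not say what its title means. The WT group was fetal liver, with WT 1 taken at E13.5, and WT 2 and WT 3 at E15.5. Neither the KO allele nor the tissue or cell type in which it acts is given, and the series title names cMaf and Zeb2. The RNA of each library came from 50k monocytes, and whether the libraries within a group are from different animals is not stated, so the p-values measure the spread between these libraries, which may be technical.

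Sterol regulatory element binding proteins (SREBPs) are transcription factors made as membrane precursors in the endoplasmic reticulum. When sterols are scarce the escort protein Scap carries them to the Golgi, where proteases release the active part, and when sterols are plentiful Insig proteins hold Scap back. Srebf2 encodes the form best known for driving cholesterol synthesis and uptake, and Srebf1 encodes forms known for fatty acid synthesis. Monocytes make membrane lipids for division and for maturation into macrophages, which handle much sterol taken up from other cells.

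Total counts ran from 17384911 to 24473471 per library. Levels below are counts per 1e+06 counts (CPM) on TMM-scaled library sizes unless given as TPM, and a gene is called higher or lower where edgeR's adjusted p was under 0.05. Zeb2 checked the KO label and stood at 23.8, 20.1 and 22.5 CPM in the KO libraries against 141, 143 and 165 in WT. Across all tested genes the libraries of 1 group correlated at 0.984 or above on the log2 CPM scale, whereas KO libraries correlated with WT libraries at 0.953 to 0.956 and BM with WT at 0.911 to 0.916. Median variation between the libraries of a group was 6.44% to 6.85% of the mean over the 31 members. Scd1 was the most variable member in each group, on 15 to 127 counts per group. In bulk samples fewer cells of a type and less RNA per cell cannot be told apart.

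Short stretches upstream of 3 members are shown because they hold the letters of a sterol regulatory element, TCACNCCA. They are RefSeq sequences (GRCm38.p6, 5′ to 3′) with the element and any CCAAT box in capitals, the box reading ATTGG where it lies on the other strand, and positions are counted from the RefSeq gene start.
Srebf2, chr15:82147067-82147154, plus strand, -202 to -115: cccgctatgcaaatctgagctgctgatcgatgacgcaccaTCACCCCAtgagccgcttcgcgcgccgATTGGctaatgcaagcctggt
Hmgcs1, chr13:119690174-119690261, plus strand, -177 to -90: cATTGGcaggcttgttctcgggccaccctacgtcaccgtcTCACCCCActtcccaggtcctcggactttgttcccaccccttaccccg
Msmo1, chr8:64733730-64733759, minus strand, -181 to -152: attcTCACTCCAtccgcgcagCCAATgact
The stretches of Srebf2 and Hmgcs1 lie outside the annotated exons of their genes, and that of Msmo1 lies within the first exon of a longer annotated transcript. The element and the box stand within the same short stretch in all 3. The stretches were cut around the element, and how often a box lies this near an element over all windows was not counted. Windows from 250 bases before to 50 after a start were given for 25 of the 31 members, as 33 windows. The element, searched on both strands, was in 3 of the 33 (9.09%) and in 4.36% of all 32817 windows. The CCAAT box was in 63.6% of member windows and 37.4% of all, CACGTG in 18.2% and 7.15%, and GGGCGG in 72.7% and 35.6%. The letters of the element were settled after matches in these windows had been seen, and a match describes the letters only. The 3 members with the element were higher in KO than in WT. So were others whose windows lack it, among them Pmvk, Lss and Sc5d. In BM, Srebf2 was higher than in WT, Msmo1 lower and Hmgcs1 not called. Whether the element plays a part in these differences was not tested. Fdps, Fdft1, Sqle, Scd1, Scd2 and Stard4 had no window.

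In KO monocytes 13 of the 31 members were higher and 5 lower than in WT, or 58.1%, against 38.1% of all genes tested. Of these 31, 3 were called with a change of at least 2-fold, against 10.2% of all genes. Requiring a change beyond 1.2-fold left 6 of the 31, against 20.3% of all genes. The excess of the members over all genes thus lay in smaller changes. The median log2 fold change was 0.159 over the members and -0.0287 over all genes. Rises included Srebf2 among the regulators, Fdps in the mevalonate stage and Fdft1 at the first step committed to sterols, while Dhcr7, Elovl6, Stard4, Insig1 and Acly were lower. By role, 2 of the 5 regulators were higher and 1 lower, 3 of the 7 mevalonate steps were higher and none lower, and 5 of the 11 sterol steps were higher and 1 lower. Of the 6 fatty acid steps 2 were higher and 2 lower. The medians were 0.168, 0.189, 0.159 and -0.0156 in that order.

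Bone marrow monocytes differed more, with 7 members higher and 16 lower than in fetal liver WT, or 74.2%, against 64% of all genes. At 2-fold or more 4 of the 31 members were called, against 24.7% of all genes. Beyond 1.2-fold 14 were called, against 49.8% of all genes. At these sizes the share of members was below that of all genes. The median log2 fold change was -0.239 over the members and 0.00308 over all genes. Lower members included the desaturase gene Scd2, the fatty acid synthase gene Fasn and the farnesyl diphosphate synthase gene Fdps, and Lpin1 stood far higher. By role, 3 regulators were higher and 2 lower, 1 mevalonate step higher and 5 lower, 1 sterol step higher and 4 lower, and 1 fatty acid step higher and 4 lower. Mixed and WT monocytes were close, with 2 members higher and none lower, or 6.45%, against 8.07% of all genes. That share of all genes rests on few libraries: it was 2.75% without Mixed 1, 3.07% without WT 1, 4.4% without Mixed 3 and 4.56% without WT 2. All of these comparisons use the same 3 WT libraries, so their values are given side by side and not as independent evidence of one another.

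**Figure D1:**
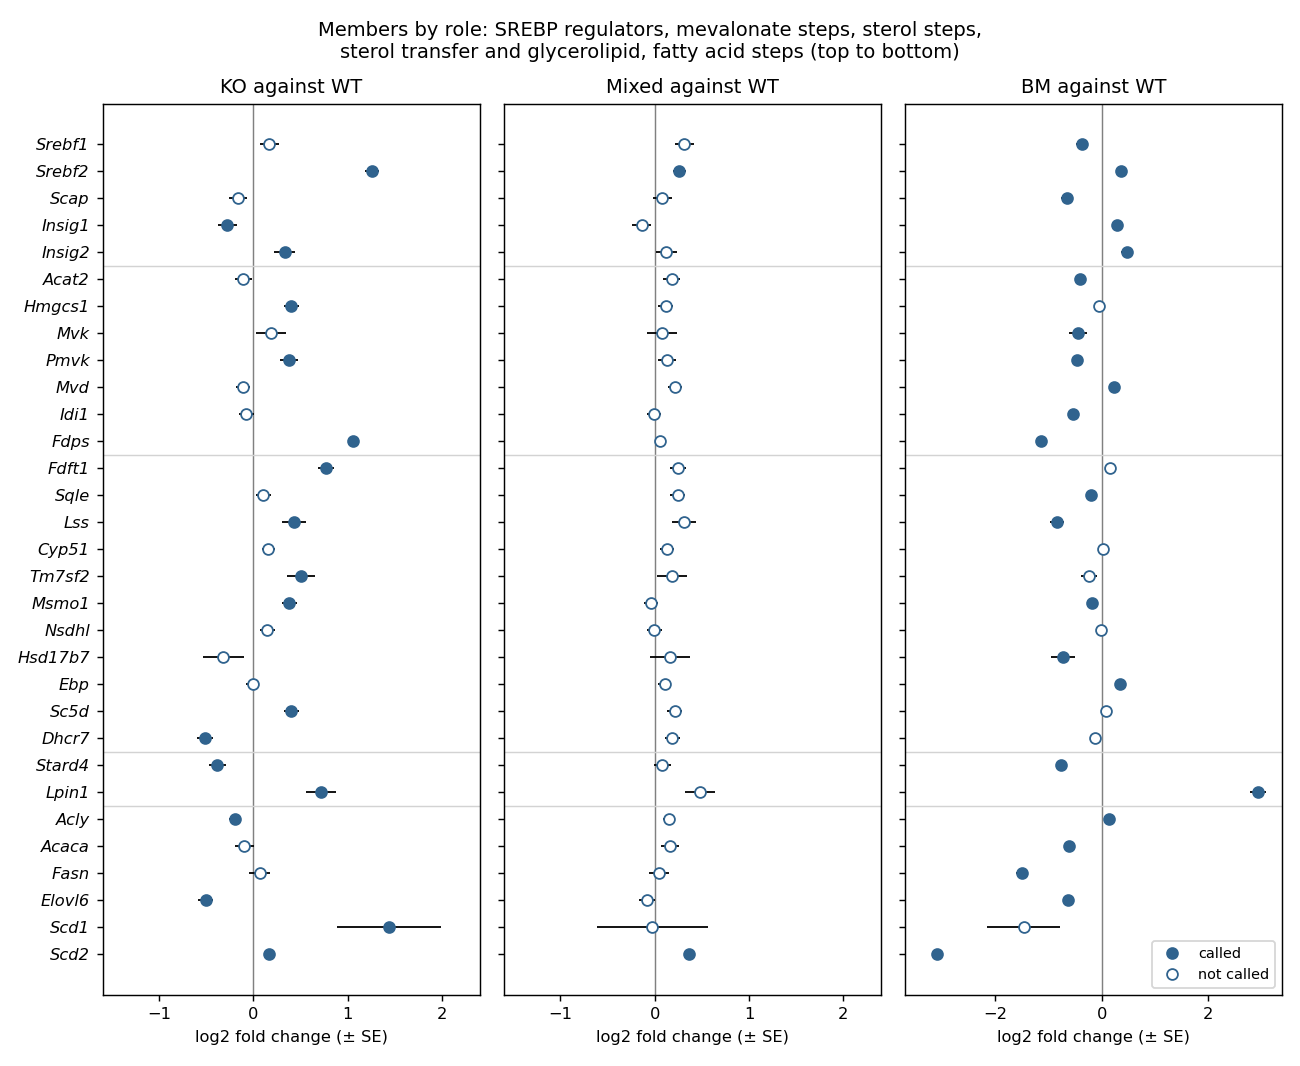
Log2 fold change with its standard error for each of the 31 members in KO, Mixed and BM monocytes against WT (n = 3 libraries per group), with filled points for an adjusted p under 0.05 and grey lines between roles. In KO, Srebf2 (1.26) and Fdps (1.05) lie to the right of most other members, and in BM, Lpin1 (2.94) and Scd2 (-3.10) lie at opposite ends. The horizontal scale of the BM panel is wider.

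Srebf2 (chromosome 15, 82147181 to 82205379, plus strand, GRCm38), the SREBP gene of the cholesterol arm, was at 124, 112 and 110.0 CPM in KO, 49.0, 45.8 and 49.9 in WT, 54.3, 62.3 and 56.5 in Mixed and 62.3, 59.98 and 63.4 in BM. Every KO library lay above all 9 others, and the BM and Mixed ranges overlapped each other, both above WT. The rise in KO was 2.39-fold (1.26 ± 0.070, adjusted p = 3.08e-12). In BM it was higher than WT by a log2 fold change of 0.36 ± 0.070, adjusted p = 1.25e-04.

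Srebf1, the SREBP gene of the fatty acid arm, was at 77.1, 64.2 and 67.4 CPM in KO, 60.7, 58.8 and 66.3 in WT, 66.6, 88.5 and 75.6 in Mixed and 45.7, 44.1 and 53.6 in BM. KO and WT overlapped, with a log2 fold change of 0.17 ± 0.099, adjusted p = 0.201, and all BM libraries lay below all fetal liver libraries. BM against WT gave -0.37 ± 0.10, adjusted p = 0.00332. Srebf1 exons share 1.93% of their length with Rai1 on the other strand, and the library kit does not mark strand.

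The balance between the SREBP genes can be read from the deposited TPM, which are scaled for transcript length. The ratio of Srebf2 TPM to Srebf1 TPM was 1.56 ± 0.093 in KO and 1.29 ± 0.182 in BM, and 0.751 ± 0.0649 in WT and 0.749 ± 0.0937 in Mixed (SD, n = 3 each). It was above 1 in all 6 KO and BM libraries and below 1 in all 6 WT and Mixed libraries. On the log2 scale the ratio differed by 1.06 between KO and WT and by 0.777 between BM and WT, each with p = 0.1 by a two-sided exact permutation test, which is the smallest p that 3 against 3 libraries allow. The same exact permutation test gave p = 1 for Mixed against WT and p = 0.2 for BM against KO.

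**Figure D2:**
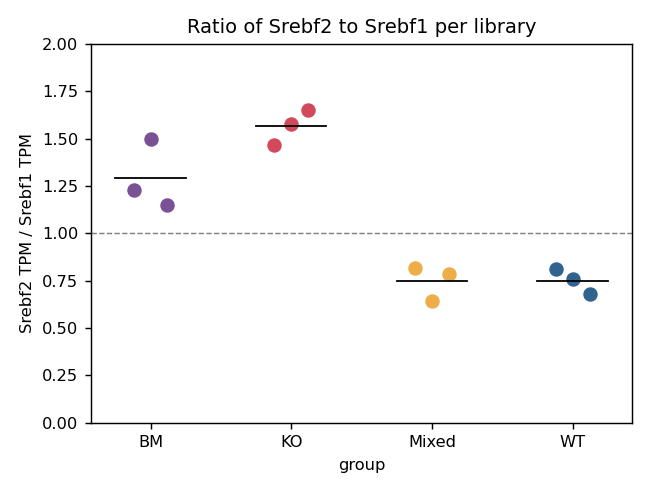
Ratio of Srebf2 TPM to Srebf1 TPM in each of the 12 libraries, with points for libraries, short lines for group means and a dashed line at 1. The KO (1.47 to 1.65) and BM (1.15 to 1.5) libraries lie above 1, and the Mixed (0.643 to 0.818) and WT (0.682 to 0.812) libraries below it.

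Scap, the escort of the SREBP precursors, was at 17.9, 17.2 and 17.6 CPM in KO, 19.7, 20.5 and 19.0 in WT, 20.6, 22.7 and 19.2 in Mixed and 11.9, 12.02 and 13.49 in BM. KO and WT did not overlap but the difference did not pass the test (-0.16 ± 0.099, adjusted p = 0.209). In BM all libraries lay below every fetal liver library (-0.66 ± 0.10, adjusted p = 7.12e-06).

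Insig1, an anchor that holds Scap in the endoplasmic reticulum and is itself a known SREBP target, was at 41.8, 43.0 and 34.7 CPM in KO, 54.2, 44.5 and 46.3 in WT, 38.1, 47.2 and 46.2 in Mixed and 64.2, 55.5 and 56.8 in BM. It was therefore lower in KO (-0.28 ± 0.10, adjusted p = 0.0347) and higher in BM (0.28 ± 0.099, adjusted p = 0.0169). Over 23 alternative analyses of KO the adjusted p ran from 0.0145 to 0.515 and the call was lost in 5, among them those without BM 2, KO 3 or WT 1 (adjusted p = 0.0627 to 0.179). The BM call was lost without BM 1, WT 2 or WT 3 (adjusted p = 0.0592 to 0.0857). Insig2, the related anchor, was at 20.0, 24.8 and 23.3 CPM in KO, 20.5, 17.2 and 16.5 in WT, 20.1, 21.0 and 17.8 in Mixed and 27.1, 22.8 and 25.2 in BM. KO 1 lay within the WT range, and the KO difference (0.33 ± 0.11, adjusted p = 0.0222) was lost in 7 of 23 alternatives, among them those without KO 2, KO 3, WT 2 or WT 3 (adjusted p = 0.0663 to 0.116). The BM difference was 0.47 ± 0.11, adjusted p = 7.95e-04.

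**Figure D3:**
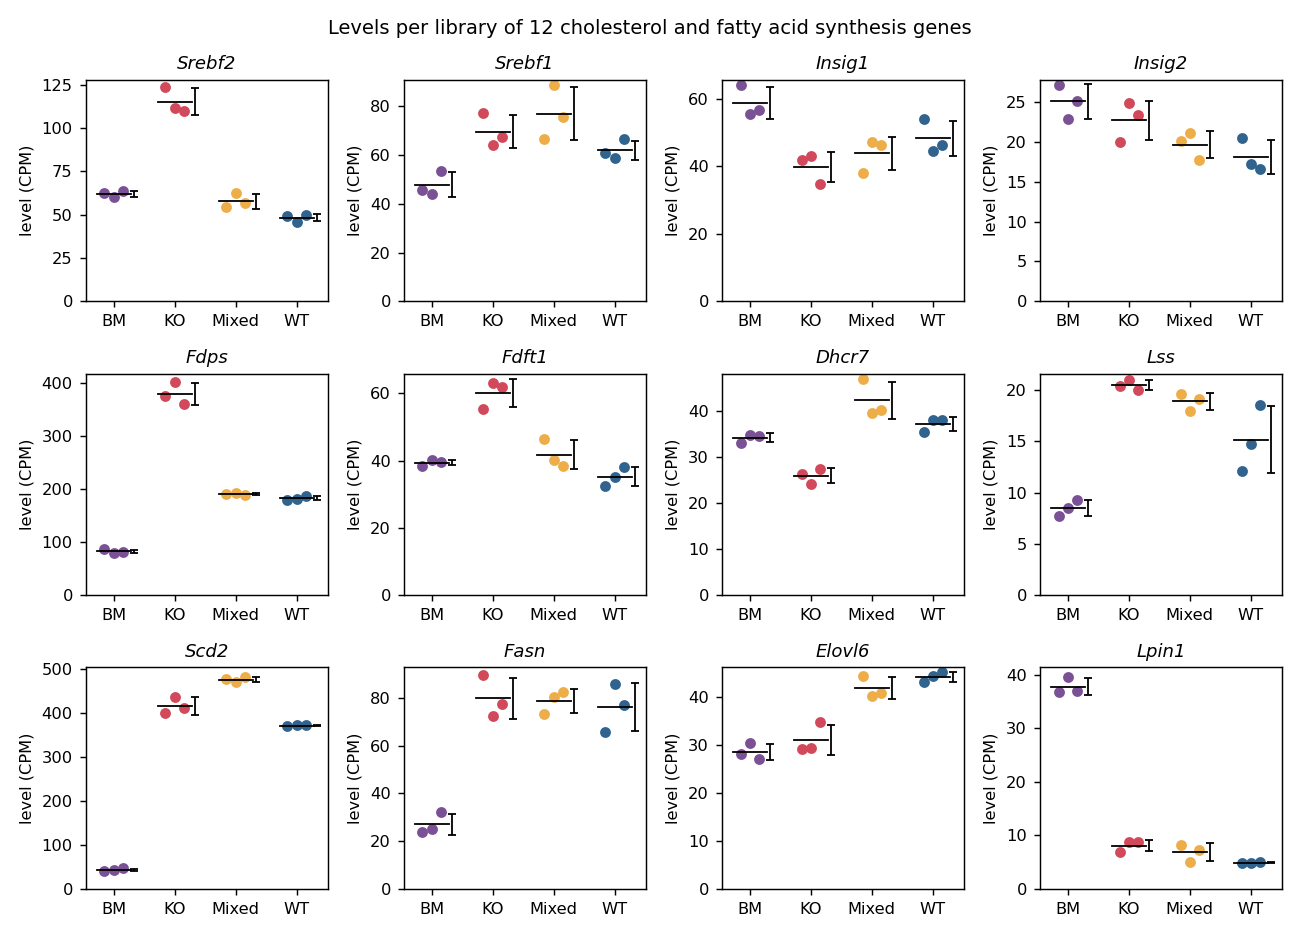
CPM of 12 members in each library, with points for libraries, a line for the group mean and a bar at its right for the SD (n = 3 per group), each axis starting at 0. Srebf2, Fdps and Fdft1 stand apart in KO, where the 3 Fdps libraries lie between 360.0 and 402 CPM, and Scd2, Fasn and Lpin1 stand apart in BM.

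Fdps (chromosome 3, 89093588 to 89101959, minus strand, GRCm38) encodes farnesyl diphosphate synthase, whose product feeds sterols, ubiquinone and protein prenylation. It was at 376, 402 and 360.0 CPM in KO, 179, 182 and 187 in WT, 190.4, 192 and 188 in Mixed and 86.1, 79.2 and 81.9 in BM. The groups KO and BM lay at opposite ends with Mixed and WT between them. KO was 2.08-fold above WT (1.05 ± 0.054, adjusted p = 7.49e-13) and BM 2.22-fold below it (-1.15 ± 0.055, adjusted p = 6.58e-14). Fdps shares 26.7% of its exon length with the same-strand gene Gm43738, which was near 0 in all groups (0.0526 CPM in KO, 0.110 in WT and 0 in BM).

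Hmgcs1, which condenses acetoacetyl-CoA with acetyl-CoA at the entry to the mevalonate stage, measured 76.9, 81.2 and 71.4 CPM in the KO libraries and 53.9, 61.4 and 58.0 in WT. The KO libraries lay above all 9 others (0.40 ± 0.075, adjusted p = 1.90e-04), and BM did not differ past the test (-0.060 ± 0.076, adjusted p = 0.509). Pmvk, phosphomevalonate kinase, was at 34.7, 46.7 and 42.1 CPM in KO, 29.7, 31.1 and 34.5 in WT and 23.4, 23.8 and 22.3 in BM. Its lowest KO library was close to the highest WT library; KO was higher (0.37 ± 0.095, adjusted p = 0.00352) and BM lower (-0.46 ± 0.098, adjusted p = 3.58e-04).

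The other 4 mevalonate members did not pass the test in KO, with log2 fold changes from -0.11 for Mvd to 0.19 for Mvk. Idi1, which isomerises isopentenyl diphosphate, was at 43.6, 47.6 and 46.1 CPM in BM against 63.4, 73.3 and 62.6 in WT, and 68.6, 65.0 and 56.0 in KO. BM lay below every fetal liver library (-0.54 ± 0.079, adjusted p = 3.97e-06). Acat2, the cytosolic thiolase that makes acetoacetyl-CoA, was also lower in BM by a log2 fold change of -0.40 ± 0.091, adjusted p = 7.11e-04, as was the mevalonate kinase gene Mvk (-0.44 ± 0.17, adjusted p = 0.0246), whose BM and WT libraries overlapped and whose call was lost without BM 1, BM 2, WT 2 or WT 3 (adjusted p = 0.0726 to 0.0956). Mvd, the diphosphomevalonate decarboxylase gene, was the only mevalonate member higher in BM than in WT (0.23 ± 0.077, adjusted p = 0.0111), and that call was lost without BM 3 or WT 1 (adjusted p = 0.0515 to 0.0566). Neighbouring mevalonate steps thus differed in direction in BM.

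Fdft1, squalene synthase, takes the first step that leads only to sterols, and was at 55.3, 63.2 and 61.7 CPM in KO, 32.5, 35.1 and 38.1 in WT, 46.5, 40.3 and 38.2 in Mixed and 38.5, 40.1 and 39.6 in BM. All KO libraries lay above all others, and KO was 1.70-fold above WT (0.77 ± 0.084, adjusted p = 1.74e-07). Fdft1 shares 18.3% of its exon length with Ctsb on the other strand, a cathepsin gene at 1100 CPM in KO, 913 in WT and 2383 in BM, so unstranded counting leaves its level uncertain. Ctsb was higher than in WT by 0.27 in KO and 1.38 in BM on the log2 scale, while Fdft1 in BM did not pass the test (0.16 ± 0.085, adjusted p = 0.104).

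Sqle, squalene epoxidase, a known control point of the sterol stage, measured 37.1, 38.9 and 40.2 CPM in the KO libraries and 37.0, 37.4 and 33.7 in WT, which overlapped (0.10 ± 0.078, adjusted p = 0.321). BM was slightly lower (-0.19 ± 0.079, adjusted p = 0.0368), a call lost without BM 1, BM 3, WT 1 or WT 2 (adjusted p = 0.0703 to 0.118). Lss, lanosterol synthase, was at 20.5, 21.0 and 20.0 CPM in KO, 12.2, 14.8 and 18.6 in WT, 19.7, 18.0 and 19.1 in Mixed and 7.75, 8.48 and 9.28 in BM. WT was spread widely, with the E13.5 library lowest, and BM lay below all others (-0.84 ± 0.13, adjusted p = 1.07e-05). KO was above WT (0.43 ± 0.12, adjusted p = 0.00962), but the call was lost without WT 1 (adjusted p = 0.0792), and on the TPM scale the difference between group means was -0.0416, where the median gene stood at -0.167.

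Further along the pathway, Tm7sf2, a sterol C14 reductase, was at 9.59, 11.4 and 13.02 CPM in KO, 8.31, 6.84 and 8.88 in WT, 9.10, 9.93 and 8.23 in Mixed and 6.82, 7.69 and 5.80 in BM. KO lay above WT at a low level (0.50 ± 0.15, adjusted p = 0.0120), a call lost without KO 3 or WT 2 (adjusted p = 0.0808 to 0.0829). The overlapping same-strand gene Vps51, which covers 12.1% of its exons, had means of 37.7 CPM in KO and 39.6 CPM in WT. Msmo1, the C4 methylsterol oxidase, measured 58.7, 65.3 and 60.1 CPM in the KO libraries and 49.4, 45.0 and 47.0 in WT, and its KO libraries lay above all 9 others (0.38 ± 0.076, adjusted p = 3.70e-04). In BM, at 44.2, 39.1 and 40.4 CPM, it was lower (-0.19 ± 0.077, adjusted p = 0.0350), a call lost without BM 2, BM 3, WT 1 or WT 3 (adjusted p = 0.0526 to 0.115). Sc5d, lathosterol oxidase, measured 55.7, 56.7 and 53.3 CPM in the KO libraries and 37.3, 43.3 and 44.4 in WT, again with KO above all others (0.40 ± 0.079, adjusted p = 3.22e-04).

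Dhcr7, which makes cholesterol from its direct precursor in one branch of the pathway, went the other way. It was at 26.4, 24.2 and 27.5 CPM in KO, 35.5, 38.1 and 38.1 in WT, 47.1, 39.7 and 40.4 in Mixed and 33.2, 34.9 and 34.7 in BM. All KO libraries lay below all 9 others (-0.52 ± 0.084, adjusted p = 3.91e-05), whereas Sc5d, the step before it, was higher in KO. The difference between Dhcr7 and Sc5d was not itself tested.

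Of the remaining sterol steps, Cyp51, Nsdhl, Hsd17b7 and Ebp did not pass the test in KO, with log2 fold changes from -0.32 for Hsd17b7 to 0.16 for Cyp51. Hsd17b7, the keto reductase of C4 demethylation, was at 4.89, 4.75 and 3.52 CPM in BM, 6.002, 3.57 and 7.69 in KO and 5.75, 8.80 and 7.09 in WT. BM lay below WT at these low levels (-0.72 ± 0.23, adjusted p = 0.00832), and the KO libraries spanned both. The BM call was lost without BM 3 or WT 2 (adjusted p = 0.0501 to 0.0588). Ebp, the sterol isomerase, was at 117, 135 and 126 CPM in BM and 92.8, 97.8 and 108 in WT. It was the only sterol step higher in BM (0.34 ± 0.068, adjusted p = 1.64e-04), while Cyp51 (lanosterol demethylase) and Nsdhl (the C4 decarboxylase) differed from WT in BM by log2 fold changes of 0.021 and -0.016, neither past the test.

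Stard4, which carries sterol between membranes, was at 23.7, 26.9 and 22.2 CPM in KO, 31.1, 30.1 and 33.8 in WT, 32.2, 34.2 and 34.1 in Mixed and 18.0, 17.5 and 19.9 in BM. KO lay below WT and BM below every fetal liver library. The log2 fold changes were -0.39 ± 0.090, adjusted p = 0.00168 for KO and -0.78 ± 0.092, adjusted p = 1.95e-07 for BM.

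Lpin1 (chromosome 12, 16535669 to 16610966, minus strand, GRCm38), a phosphatidate phosphatase that makes diacylglycerol and also acts with nuclear receptors, was at 36.8, 39.7 and 37.0 CPM in BM, 6.82, 8.78 and 8.71 in KO, 8.23, 4.96 and 7.36 in Mixed and 4.85, 4.83 and 5.07 in WT. BM stood 7.68-fold above WT (2.94 ± 0.15, adjusted p = 2.06e-13), and no fetal liver library reached a level near it. KO was above WT (0.72 ± 0.16, adjusted p = 9.85e-04) but overlapped Mixed.

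**Figure D4:**
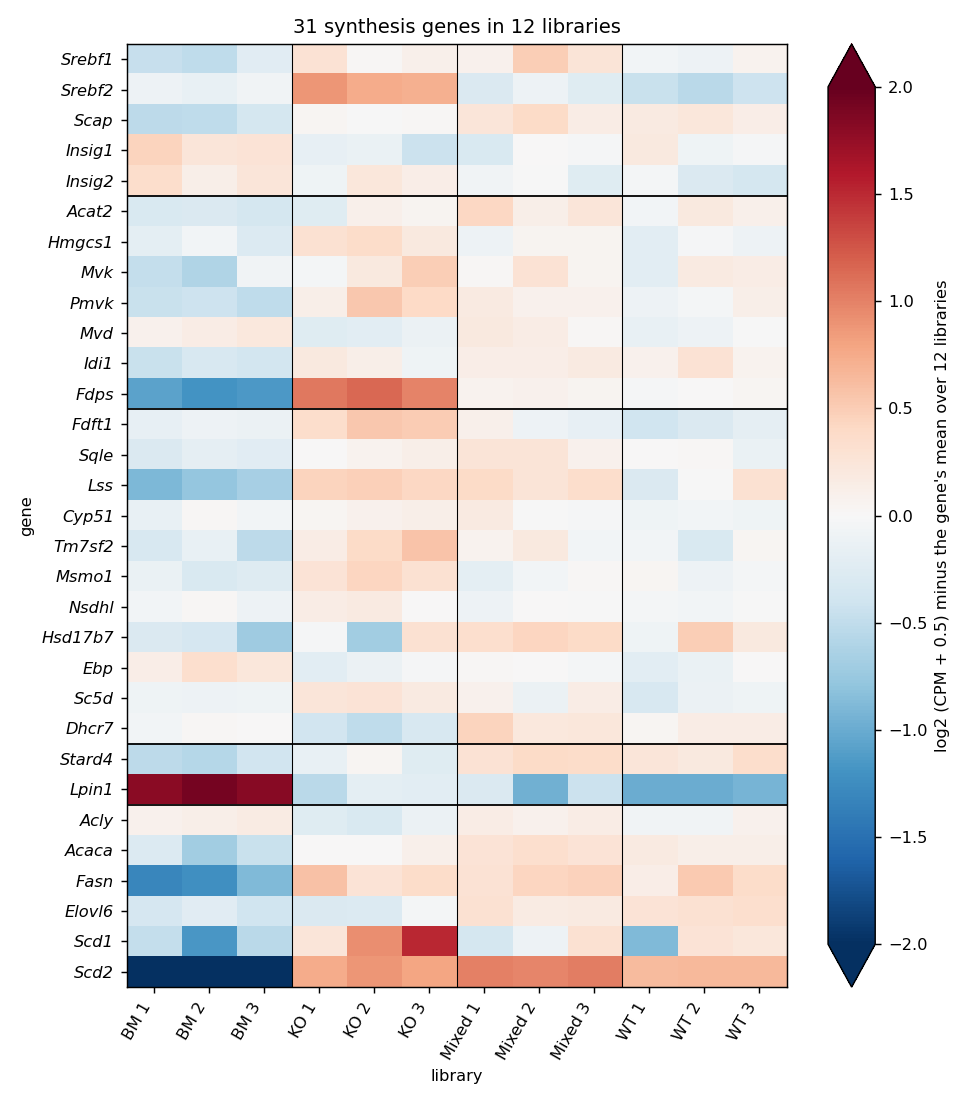
Level of each of the 31 members in each of the 12 libraries, as log2 (CPM + 0.5) minus the member's own mean over the libraries, with roles divided by black lines. Scd2, Fasn and Fdps are lowest in the BM columns and Lpin1 highest there, and Srebf2 and Fdps are highest in the KO columns.

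Scd2 (chromosome 19, 44293674 to 44306864, plus strand, GRCm38) encodes a stearoyl-CoA desaturase, which makes monounsaturated fatty acids. It was at 398, 436 and 411 CPM in KO, 369, 372 and 371 in WT, 475, 469.6 and 481 in Mixed and 40.2, 43.0 and 46.3 in BM. BM was 8.58-fold below WT, with no overlap with any fetal liver library (-3.10 ± 0.059, adjusted p = 2.03e-20). The fetal liver groups did not overlap either, in the order WT, KO, Mixed. The KO rise over WT was small (0.16 ± 0.053, adjusted p = 0.0173), its call was lost without KO 2 or WT 1 (adjusted p = 0.0559 to 0.105), and on the TPM scale the KO libraries (84.2 to 89.2) overlapped WT (84.8 to 88.3).

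Scd1, the related desaturase, was near the detection floor at 0.955, 1.84 and 3.00 CPM in KO, 0.167, 0.983 and 0.940 in WT, 0.457, 0.637 and 1.01 in Mixed and 0.385, 0.0466 and 0.347 in BM. KO and WT overlapped although the call was made (1.44 ± 0.55, adjusted p = 0.0457), and it was lost in 11 of 23 alternatives, among them those without BM 1, BM 3, KO 2, KO 3, Mixed 1, Mixed 2, Mixed 3, WT 1 or WT 2 (adjusted p = 0.0510 to 0.259). BM rested on 15 counts over the group and did not pass the test (-1.47 ± 0.69, adjusted p = 0.0681).

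Fasn (chromosome 11, 120805846 to 120824547, minus strand, GRCm38), the fatty acid synthase that builds palmitate, was at 89.4, 72.5 and 77.2 CPM in KO, 65.8, 85.9 and 77.0 in WT, 73.2, 80.4 and 82.5 in Mixed and 23.9, 25.3 and 32.0 in BM. The fetal liver groups overlapped throughout, and KO did not differ from WT past the test (0.064 ± 0.11, adjusted p = 0.699). BM was 2.82-fold below WT (-1.50 ± 0.12, adjusted p = 1.16e-08).

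Acaca, acetyl-CoA carboxylase, which supplies malonyl-CoA to Fasn, was at 23.1, 23.3 and 24.8 CPM in KO, 26.1, 25.1 and 25.04 in WT, 28.04, 29.2 and 27.9 in Mixed and 18.9, 14.1 and 16.8 in BM. BM lay below all fetal liver libraries (-0.62 ± 0.099, adjusted p = 1.18e-05), and the KO difference did not pass the test (-0.095 ± 0.096, adjusted p = 0.476). Acly, ATP citrate lyase, which supplies cytosolic acetyl-CoA to both pathways, was at 266, 257 and 293 CPM in KO, 301, 300.5 and 335 in WT, 349.8, 338 and 349.8 in Mixed and 335, 342 and 353 in BM. KO lay below all 9 others (-0.20 ± 0.057, adjusted p = 0.00844). The small excess in BM (0.14 ± 0.057, adjusted p = 0.0389) was called in 8 of 21 alternatives and was lost without BM 2, BM 3, Mixed 1, Mixed 2, Mixed 3, WT 1 or WT 2 (adjusted p = 0.0504 to 0.157). Its call was also lost with both other scalings, DESeq2's size factors and the upper quartile.

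Elovl6, which lengthens palmitate to stearate, was at 29.2, 29.3 and 34.7 CPM in KO, 43.1, 44.4 and 45.1 in WT, 44.4, 40.2 and 40.7 in Mixed and 28.2, 30.3 and 27.1 in BM. KO and BM both lay below Mixed and WT. The log2 fold changes were -0.51 ± 0.083, adjusted p = 4.03e-05 for KO and -0.63 ± 0.084, adjusted p = 9.14e-07 for BM. Thus Elovl6 was lower in both groups, while Fasn was lower in BM and did not pass the test in KO; BM against KO gave -1.56 ± 0.12, adjusted p = 6.99e-09 for Fasn and -0.12 ± 0.085, adjusted p = 0.212 for Elovl6.

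Summed over roles, the mevalonate steps held 654 to 716 CPM in KO, 438 to 477 in WT, 489 to 499 in Mixed and 312 to 317 in BM. Fdps was the largest part of each of these sums, at 360 to 402 CPM in KO and 179 to 187 in WT. The rest of the mevalonate sum overlapped between KO and WT. The fatty acid steps held 807 to 844 CPM in KO, 805 to 854 in WT, 958 to 983 in Mixed and 447 to 476 in BM. On CPM, KO and WT thus overlapped in summed fatty acid level and lay apart in summed mevalonate level, the latter through Fdps. Most of the lower fatty acid sum of BM lay in Scd2, at 40.2 to 46.3 CPM in BM and 369 to 372 in WT. In TPM the fatty acid sums did not overlap, at 192 to 209 in KO and 218 to 232 in WT. The mevalonate sums lay apart in TPM too, at 539 to 569 in KO and 368 to 399.5 in WT. The sterol steps held 440.2 to 467 CPM in KO, 381 to 415 in WT, 432 to 453 in Mixed and 396 to 421 in BM, a narrower range than either. KO and WT lay apart in this sum on CPM, but in TPM both ran from 255 to 275.

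Per transcript length, Fdps was the highest member in fetal liver, at 201 ± 3.10 TPM in WT and 373 ± 14.9 in KO (SD, n = 3). In WT it was followed by Ebp (100.1 ± 10.7), Acly (97.0 ± 6.68) and Scd2 (86.5 ± 1.77). The WT libraries of Ebp and Acly overlapped, and those of Scd2 lay below both. In BM the order was Ebp (126 ± 13.8), Acly (116 ± 1.04) and Fdps (95.7 ± 5.60), and Scd2 was not among the first 4. Scd1 was lowest in WT (0.185 ± 0.122 TPM), KO (0.764 ± 0.554) and BM (0.104 ± 0.00503). The TPM of the median tested gene moved by -0.167 between WT and KO and by 0.111 between WT and BM on the log2 scale. On TPM group means, 17 of the 18 members called in KO and all 23 called in BM kept the sign of their fold change, Lss in KO being the exception.

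Embryonic day differs between the fetal liver groups, since all KO libraries were taken at E13.5 and 2 of the 3 WT libraries at E15.5. Set against WT 1 alone, all 3 KO libraries lay above it for 12 of the 13 members called higher and below it for 5 of the 5 called lower. Over all genes called in this comparison, 98.9% of those called higher and 98.4% of those called lower did the same. Insig2 was the exception, spanning WT 1. A fit with KO and WT 1 as the E13.5 group took the lone WT library to vary like the other groups. Its log2 fold changes were 1.23 for Srebf2, 1.08 for Fdps, 0.88 for Fdft1, -0.45 for Dhcr7 and -0.47 for Elovl6. With day as a covariate 12 members were called, 9 higher and 3 lower, against 26.3% of all genes. Srebf2, Fdps, Fdft1, Dhcr7 and Elovl6 were called in all 23 alternatives run for KO against WT. Insig2, Tm7sf2, Acly and Scd2 lost their call in both fits for day, and Stard4 and Lpin1 in the covariate fit.

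Mixed against WT called Srebf2 (0.26 ± 0.070, adjusted p = 0.0255) and Scd2 (0.36 ± 0.053, adjusted p = 4.17e-04), both higher. No mevalonate or sterol step was called by edgeR; 6 of the 18 had an unadjusted p under 0.05, DESeq2 called 1 and limma voom 0. The median over the members was 0.13 with 25 of 31 positive, and over all genes -0.00641. Against the E15.5 WT libraries alone, Scd2 was called and Srebf2 was not, and Srebf2 also lost its call without Mixed 2, Mixed 3, WT 1 or WT 2 (adjusted p = 0.0599 to 0.119). Leaving out WT 3 raised the count of called members to 6, and leaving out Mixed 3, WT 1 or WT 2 lowered it to 1. The Mixed libraries lay above all WT libraries for 11 members, or 35.5%, against 12.9% of all genes tested. Besides the called pair these were Srebf1, Mvd, Fdps, Fdft1, Sqle, Cyp51, Dhcr7, Acly and Acaca, which did not pass the test, and for Srebf1 and Fdft1 the lowest Mixed and the highest WT library were nearly level.

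Between KO and Mixed, 7 members were higher and 8 lower in KO, or 48.4%, against 36.7% of all genes. Srebf2 (1.00), Fdps (1.00), Fdft1 (0.53) and Msmo1 (0.42) were higher in KO on the log2 scale, and Dhcr7 (-0.70), Stard4 (-0.47), Elovl6 (-0.43) and Acly (-0.35) lower. Here 4 of 6 fatty acid steps were lower in KO, with Scd1 higher, while 3 mevalonate steps were higher and 2 lower. The call of Pmvk was lost without BM 1, BM 3, KO 2, KO 3, Mixed 1, Mixed 2, Mixed 3 or WT 2 (adjusted p = 0.0514 to 0.283), and that of Acaca without KO 1, KO 2, Mixed 1, Mixed 2 or Mixed 3 (adjusted p = 0.0680 to 0.106). Scd1 was not called without BM 3, KO 2, KO 3, Mixed 1, Mixed 2 or WT 2 (adjusted p = 0.0504 to 0.248), nor Acat2 without KO 1 or Mixed 1 (adjusted p = 0.106 to 0.110). All Mixed libraries were taken at E15.5 and all KO libraries at E13.5, so day and group cannot be told apart in this pair alone. A fit with day as a covariate, which borrows the day difference within WT, called 6 members, against 14% of all genes. Srebf2, Hmgcs1, Fdps, Fdft1 and Scd1 were higher there and Dhcr7 lower. All 4 lower fatty acid steps lost their call in that fit (adjusted p = 0.122 to 0.219). So did Msmo1 (adjusted p = 0.139) and Stard4 (adjusted p = 0.0965), as well as Acat2, Pmvk and Mvd.

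BM against KO called 6 members higher and 20 lower, or 83.9%, against 63.8% of all genes, and BM against Mixed 4 higher and 17 lower, or 67.7%, against 58.4%. Fdps was lower in BM by a log2 fold change of -2.20 against KO and -1.21 against Mixed. For Scd2 the values were -3.26 and -3.46, and for Lpin1 2.22 and 2.46. In all, the 3 BM libraries lay below all 9 fetal liver libraries for 12 members, or 38.7%, against 23% of all genes tested. They lay above them for 3 members, Insig1, Ebp and Lpin1, or 9.68%, against 23.9% of all genes. Group means were highest in KO for 14 members, in Mixed for 10, in BM for 5 and in WT for 2, where the shares over all genes were 24.3%, 12.1%, 39.2% and 24.4% in that order. They were lowest in BM for 20 members, and for 38.9% of all genes. Tissue, age and the labels of these groups differ together and cannot be told apart.

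Genes outside the list that act on SREBP processing or sterol sensing were examined as a list of 11. In KO, 4 were higher and 2 lower than WT, or 54.5%, against 38.1% of all genes. Rnf145, an endoplasmic reticulum ubiquitin ligase known to act on Scap, was at 23.2, 25.4 and 24.3 CPM in KO against 11.9, 11.5 and 11.7 in WT (1.05 ± 0.13, adjusted p = 1.33e-06), without overlap. Rnf139, a sterol-sensing ubiquitin ligase, and Erlin1, a scaffold in sterol-driven protein breakdown, were higher by log2 fold changes of 0.45 and 0.45.

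Of 12 genes of the isoprenoid branches and first steps, 10 were tested, and 1 was higher and 3 lower in KO, or 40%, close to the 38.1% of all genes. Coq2, which prenylates the ring of ubiquinone, measured 19.1, 18.6 and 16.8 CPM in the KO libraries and 8.65, 9.47 and 8.503 in WT (1.03 ± 0.13, adjusted p = 1.03e-06). Acat1, the mitochondrial thiolase, and Pdss1, which makes the ubiquinone side chain, were lower, with log2 fold changes of -0.37 and -0.36.

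Among 16 further fatty acid genes, 14 were tested, and 6 were higher and 4 lower in KO, or 71.4%, against 38.1% of all genes. Elovl7, an elongase of long-chain fatty acids, measured 21.1, 23.0 and 21.0 CPM in the KO libraries and 10.8, 10.9 and 12.1 in WT (0.95 ± 0.11, adjusted p = 6.57e-07). Gpam, which starts glycerolipid assembly, was lower (-0.79) and the acetyl-CoA synthetase gene Acss2 higher (0.62) on the log2 scale, both at low levels (means of 3.47 CPM in KO and 6.08 in WT for Gpam, and 4.71 and 3.08 for Acss2). Of 9 genes of sterol efflux and storage, 6 were higher and 2 lower, or 88.9%, against the same 38.1%. Nr1h3, the oxysterol receptor LXR alpha, measured 2.73, 1.84 and 1.65 CPM in the KO libraries and 4.57, 6.66 and 8.27 in WT (-1.65 ± 0.24, adjusted p = 7.90e-06). Abcg1, a sterol exporter, and Mylip, a ligase that removes lipoprotein receptors, were higher by 0.58 and 0.53; both are known LXR targets.

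Marker genes were measured beside these results. The summed level of 9 classical monocyte markers was 7759 to 8733 CPM in KO, 10873 to 12344 in WT, 14466 to 14574 in Mixed and 35075 to 35743 in BM, and the markers were present in every group. Against WT, 3 were higher and 6 lower in KO, 8 higher and 1 lower in BM, and 5 higher in Mixed. Dendritic cell markers summed to 121 to 136 CPM in KO and 17.8 to 22.2 in WT, with 5 of 6 higher and 1 lower. In Mixed they summed to 20.7 to 25.2 CPM and in BM to 83.0 to 93.0, with 3 of 6 higher and 1 lower in BM than in WT. Different genes made up the sums of KO and BM. Cd209a reached 1560 counts in a BM library but at most 16 in KO, where it was at 0 in 2 libraries. Flt3 reached 1664 counts in KO and 357 in BM. Neutrophil markers summed to 1786 to 2725 CPM in KO, and to 631, 770 and 1666 in WT 1, WT 2 and WT 3. Of these 7 markers, 3 were higher in KO and 4 were not called. They summed to 361 to 411 CPM in Mixed, below every WT library, with 1 of 7 called lower by edgeR. Between Mixed and WT, DESeq2 called 5 of these 7 and limma voom 4. In BM the neutrophil markers summed to 472 to 592 CPM, with 1 higher and 4 lower than in WT. B cell markers summed to 130 to 144 CPM in KO and 79.6 to 87.3 in WT, with 1 of 4 tested higher and 1 lower. They summed to 79.5 to 82.7 CPM in Mixed and 39.7 to 44.1 in BM, with 3 of 4 higher and 1 lower in BM than in WT. The part of these cell types in the KO, Mixed and BM differences was not tested.

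Of 10 cell division markers, 2 were higher and 3 lower in KO, where they summed to 4975 to 5058 CPM against 4771 to 4867 in WT and 4819 to 4895 in Mixed. In BM the sum was 3490 to 3636 CPM and 9 of 10 were lower, beside the lower Scd2, Fasn and Fdps, and the part of division was not tested. Erythroid markers summed to 326 to 736 CPM in KO, 524 to 1010 in WT, 437 to 879 in Mixed and 2.97 to 12.8 in BM. Hepatocyte markers other than Trf, which monocytes also express, summed to 16.6 to 84.1 CPM in KO, 8.80 to 66.6 in WT, 5.15 to 7.10 in Mixed and 0.0496 to 0.495 in BM, where Alb, Apoa1 and Serpina1a were at 0 in all 3 libraries. Megakaryocyte markers summed to 3.27 to 8.62 CPM in KO, 2.59 to 10.8 in WT, 1.19 to 3.01 in Mixed and 0.248 to 0.495 in BM. WT 3 held the highest WT sum of erythroid and megakaryocyte markers, and of hepatocyte markers with Trf counted. No erythroid, hepatocyte or megakaryocyte marker was called by edgeR between KO and WT; 1 hepatocyte marker and none of the others had an unadjusted p under 0.05, and DESeq2 and limma voom each called 1 hepatocyte marker. In BM, 6 of 6 erythroid markers and 7 of 8 hepatocyte markers were lower than in WT, and the part of these cells in the BM differences was not tested.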

How the data were processed

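Bulk RNA-seq libraries of 12 monocyte samples were grouped by their titles into BM, KO, Mixed and WT, with 3 libraries each. RNA was extracted with NucleoSpin RNA XS and libraries were made with the SMARTer Ultra Low kit, which does not mark strand, per the labels' protocols. DRAGEN, STAR, Subread, featureCounts and Salmon are named with the build mm10 in the submitters' processing notes, with no role or order. The authors deposited estimated counts per gene, of which 28.5% of nonzero values were not whole (tolerance 1e-06), and TPM, which were used to compare genes per length. The deposited CPM table was not used.

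From the 55774 entries, 287 repeats of a gene were removed, leaving 55487 genes. Estimated counts were rounded and genes kept by filterByExpr (minimum count 10, minimum total 15), which left 14618 genes with at least 99.81% of each library's counts. edgeR 4.0.16 (R 4.3.3) fitted 1 mean per group over all 12 libraries (TMM scaling, robust quasi-likelihood test, Benjamini-Hochberg adjustment over all genes tested), with a common biological coefficient of variation of 0.0917. Fold changes are log2 values ± SE. The script was tested on simulated data. Alternatives used DESeq2 1.42.0, limma 3.58.1 (voom), other scalings and filters, a minimum fold, embryonic day, a replicate block and each library left out. The labels state no pairing by replicate number, and the main fit used none.

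Gene positions are from GENCODE M21 (GRCm38) and promoter windows from RefSeq (GRCm38.p6). The members, the 4 pathway lists, the 8 marker lists and the tests were chosen with earlier results of these data known. Values per library are given for all regulators, all fatty acid steps and every member called with a log2 fold change of at least 0.5 in size in KO or BM against WT, and for further members where they help to follow the pathway. From each pathway list up to 3 called genes with the largest change and a mean of at least 1 log2 CPM are named.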

Additional observations from a re-analysis of the deposited data

How the results depend on the processing

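The counts of called members in the 6 comparisons kept within 1.5 times the reported count under other scalings, DESeq2, limma voom, other filters, the replicate block and single libraries left out, apart from the following. Requiring a change beyond 1.2-fold left 6 of the 31 members in KO against WT and 0 in Mixed against WT. It left 14 in BM against WT and 7 in KO against Mixed. The shares of all genes were 20.3%, 0.26%, 49.8% and 18.9% in that order. In KO and BM against WT the members thus no longer exceeded all genes, and in KO against Mixed their share was close to that of all genes. The members exceeded all genes in BM against KO (19 members, against 49.5% of all genes) and BM against Mixed (17 members, against 43%). For Mixed against WT, where 2 were reported, 4 were called with no filter on low counts, 5 with DESeq2, and 1 each with embryonic day as a covariate and within E15.5. With embryonic day as a covariate KO against Mixed called 6, against 14% of all genes. Leaving out 1 library in turn gave 14 to 18 called members in KO against WT, 1 to 6 in Mixed against WT, 18 to 23 in BM against WT, 11 to 15 in KO against Mixed, 26 to 29 in BM against KO and 20 to 22 in BM against Mixed. With replicate numbers as a replicate block 18 members were called in KO against WT, 2 in Mixed against WT, 23 in BM against WT and 14 in KO against Mixed. Deviations of libraries with the same number correlated at -0.0353 to 0.0693, so this check showed no pairing. A weak effect shared by libraries of the same number could be missed by it. No called member changed direction under the alternatives run. Depth limits Scd1, on 15 counts over the BM group. For all genes, Mixed against WT gave 1180 called genes, 399 with embryonic day as a covariate, 450 within E15.5 and 38 beyond 1.2-fold. It gave 414 without Mixed 1, 464 without WT 1, 665 without Mixed 3, 688 without WT 2 and up to 1457 with another library left out; the cause was not tested.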

Other observations

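Bone marrow monocytes also differed from fetal liver WT in genes around the synthesis pathways. Of the 14 further fatty acid genes tested, 2 were higher and 9 lower, or 78.6%, against 64% of all genes called in this comparison. Fads2, the delta-6 desaturase of polyunsaturated fatty acids, was at 0.440, 0.373 and 0.397 CPM in BM and 8.37, 8.09 and 7.66 in WT, with no overlap (-4.30 ± 0.21, adjusted p = 8.55e-14). Mcat, of mitochondrial fatty acid synthesis, was lower (-1.33) and Acss2, which makes acetyl-CoA from acetate, was higher (1.65) on the log2 scale. The 9 genes of sterol efflux and storage had 5 higher and 2 lower members, or 77.8%. Abca1, a cholesterol exporter, was at 1.21, 0.979 and 1.79 CPM in BM and 8.15, 6.88 and 6.25 in WT (-2.41 ± 0.20, adjusted p = 6.82e-10). Nr1h3 was also lower (-1.39), while Npc2, which moves cholesterol out of lysosomes, was higher (1.30).

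Of the 11 partners of SREBP processing, 8 were higher and 1 lower in BM than in WT, or 81.8%, against 64% of all genes. The lower one was Rnf145 (-0.54), and Syvn1 (0.47) and Erlin1 (0.44) had the largest rises on the log2 scale. In the isoprenoid branches 3 of the 10 tested were higher and 3 lower, or 60%, below the 64% of all genes. Fntb, a subunit of protein farnesyltransferase, fell by 0.84, Pdss1 by 0.73 and Pdss2 by 0.64 on that scale. Between Mixed and WT, Faf2 (0.23) was called among the SREBP partners, and Abcg1 (0.37), Npc2 (0.23) and Soat1 (0.22), which esterifies cholesterol, in sterol efflux and storage, all higher. These are 9.09% and 33.3% of the 2 lists, against 8.07% of all genes. In the isoprenoid and further fatty acid lists edgeR called 0 genes between Mixed and WT, with 2 and 4 at an unadjusted p under 0.05; DESeq2 called 2 and 0 and limma voom 0 in each.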
